A study of Homo sapiens with 4 samples.

Results

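The replication licensing genes are the 10 genes CDC6, CDT1, GMNN, MCM2, MCM3, MCM4, MCM5, MCM6, MCM7 and MCM10, chosen by name for their function among 20037 protein-coding genes of the gene table. A GapR-GFP peak of either deposited list was counted for a gene when its summit, the base of highest coverage, fell inside the gene or at most 5 kb outside. GapR is a bacterial protein that binds overtwisted (positively supercoiled) DNA, and its GFP fusion was mapped by CUT&RUN, in which a nuclease tethered by an antibody frees the nearby DNA. The cells were HCT116, a colorectal carcinoma line, in 2 libraries labelled WT with the genotype wildtype and 2 labelled MT. The labels give MT as TOP2A + TOP2B double knockout, whereas the design text names a mutant GapR. All 4 libraries carry a palbociclib treatment (2 µM for 28 h, a G1 arrest) in the labels, whereas the design text calls the culture asynchronous. These conflicts cannot be settled from the files, so the groups are called WT and MT.

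Licensing is the loading of the MCM helicase onto origins of replication in late mitosis and G1, before DNA synthesis starts. The origin recognition complex recruits CDC6 and CDT1, which place the ring of MCM2 to MCM7 around DNA. Geminin, the product of GMNN, binds CDT1 and prevents reloading after S phase has begun, and MCM10 acts later, when the loaded helicase is switched on. Transcription of most of these genes is driven by E2F factors, which the RB protein holds in check when CDK4 and CDK6 are inhibited, the action of palbociclib.

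Filtering by the authors left 21774260 fragments for WT replicate 1 and 27443146 for WT replicate 2. The control of both lists, MT replicate 1, kept 23356540. MT replicate 2 was not analysed here. Each list marks sites with more WT than MT fragments in a single pair of libraries, so no test between WT and MT was possible. The control is shared, and fold enrichments below are the authors' values within each list. A peak is called replicated where it overlaps a peak of the other list by at least 1 bp, and counts of replicated summits use the summits of WT replicate 1. Whether the replicates came from separate cultures is not stated, so the spread between them may be technical.

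GapR-GFP at the licensing genes was found mainly at their starts, and no replicated summit lay deep inside a gene. Summits deeper inside, listed in 1 library only, lay in CDC6 and GMNN (WT replicate 1) and in MCM5 (WT replicate 2). In WT replicate 1 every member had a summit within 1 kb of its start, and 8 of 10 had a replicated one there. MCM5 and MCM10 were the exceptions, with start peaks in WT replicate 1 only. The other replicated summits lay before the start of MCM3 and CDC6 and beyond the end of CDT1 and MCM7. Over the whole gene and 5 kb around it, 10 of 10 members had a summit in WT replicate 1, 9 of 10 in WT replicate 2 and 8 of 10 a replicated one. Among all protein-coding genes the corresponding shares were 77.9%, 68.3% and 66.6%, and the replicated share was 67.7% among the 10789 genes in the members' length range of 5470 to 54892 bp. The count of 8 of 10 lies near this background.

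At the start itself the background was lower. The promoter table gives a strand for 8 members and for 15842 protein-coding genes. Of these 8 members, 7 had a replicated summit within 1 kb of the start, against 47.8% of all stranded genes. In WT replicate 1 alone all 8 had one, against 56.1%, and in WT replicate 2 alone 7 had one, against 50.1%. No member with a strand had a replicated summit within 1 kb of its end, where 4.98% of all stranded genes had one. No member had a replicated summit more than 1 kb inside both boundaries, against 23.5% of protein-coding genes in the same length range. For MCM4 and MCM5, which the promoter table does not hold, positions are counted from the boundary of lowest coordinate, and this boundary is what "start" means for them below.

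**Figure D1:**
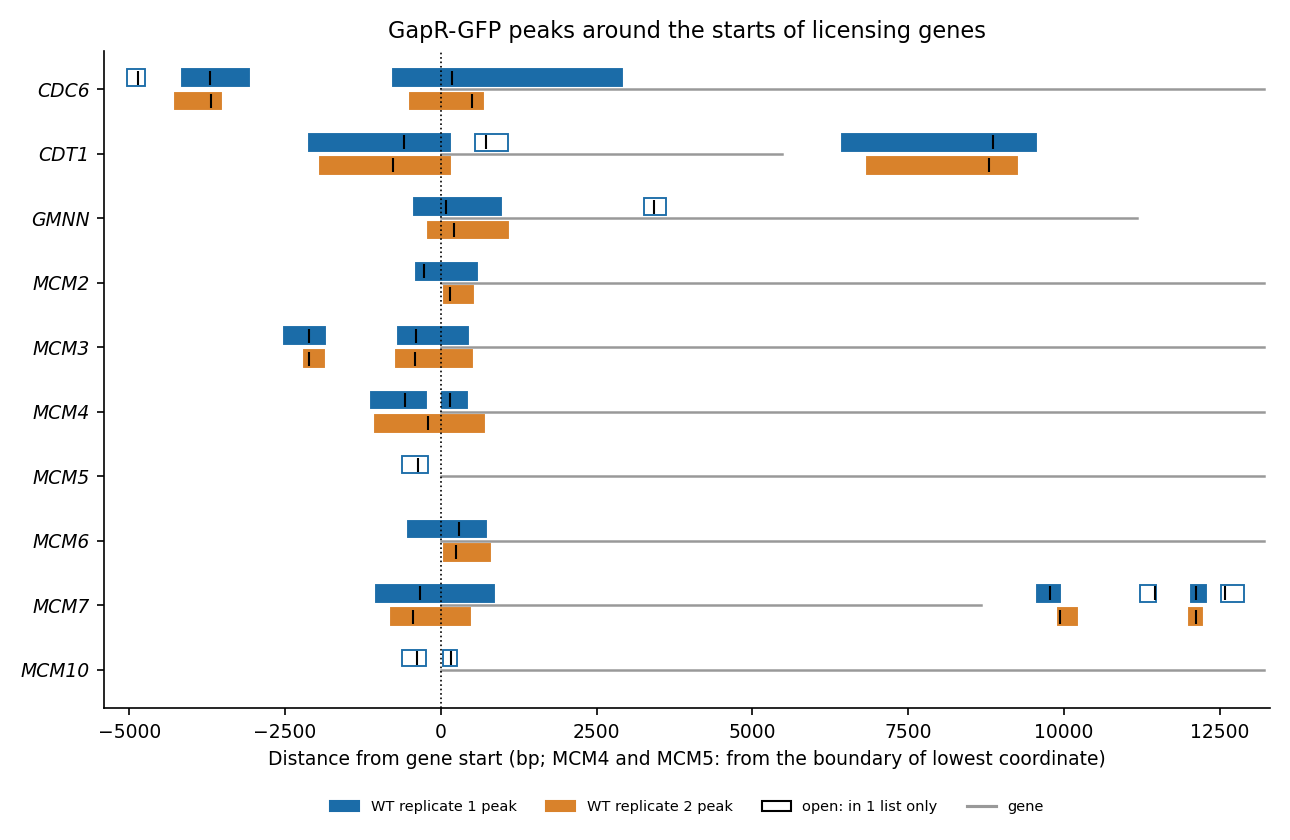
Peaks of the 10 licensing genes by distance from the gene start in bp, read along the direction of transcription (MCM4 and MCM5 from the boundary of lowest coordinate), with WT replicate 1 above and WT replicate 2 below each gene line. Boxes are peaks, ticks are summits, open boxes have no overlapping peak in the other list, and long genes run past the right edge. Filled boxes gather within 1 kb of the start of 8 genes, and MCM5 and MCM10 have open boxes only. Off the plot lie an MCM5 peak of WT replicate 2, 31021 bp inside the gene, and a CDC6 peak of WT replicate 1, 15156 bp inside.

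CDC6 and CDT1, the loaders, had the longest start peaks of the 10 genes in WT replicate 1. CDC6 (chromosome 17, 40287879 to 40304657 in GRCh38.p14) lay under a WT replicate 1 peak of 3682 bp, longer than 99.0% of peaks in that list, which ran from 773 bp before the start to 2908 bp inside. In WT replicate 2 the peak was 1183 bp long. The pileup, the number of fragments over the summit, was 24 in both libraries (exact 95% Poisson interval 15.4 to 35.7). The first list gave a fold enrichment of 8.33 and the second 7.46. The same pileup came from libraries of unequal size and amounts to 1.10 and 0.875 fragments per 1000000 filtered fragments. The peak of WT replicate 1 covered 17.3% of the gene, whereas that of WT replicate 2 reached only 682 bp inside. A weaker peak 15156 bp inside the gene, with a fold enrichment of 4.18, was listed in WT replicate 1 only.

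CDT1 (chromosome 16, 88803789 to 88809258) had the highest fold enrichment at its start among the 10 genes in both lists. Its summits lay 594 bp before the start in WT replicate 1 and 762 bp before it in WT replicate 2, under peaks of 2265 and 2089 bp. The pileup was 35 (24.4 to 48.7) and 27 (17.8 to 39.3), and the fold enrichment 12.5 and 8.20. Among the 7565 stranded protein-coding genes with a replicated start peak, these values stood at the 93.5th and 86.9th percentiles. The local MT level, computed back from pileup and fold enrichment, was 1.87 in the first list, the lowest value there, and 2.41 in the second. In WT replicate 2 the pileups of MCM3 (32) and MCM7 (28) were higher than that of CDT1, over MT levels of 3.52 and 2.94. A peak 733 bp inside the gene, with a fold enrichment of 5.57, was listed in WT replicate 1 only.

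A still higher fold enrichment lay within 5 kb of CDT1, at a neighbouring gene. That peak reached 19.2 and 11.9 in the lists of WT replicates 1 and 2, with pileups of 54 (40.6 to 70.5) and 37 (26.1 to 51.0). Its summits were 3384 and 3328 bp beyond the end of CDT1, but 714 and 658 bp before the start of APRT, the adenine salvage enzyme gene on the opposite strand. The peak ran over 3105 and 2413 bp. Its local MT level was the lowest of each list (1.87 and 2.20, the genome background), so both folds were taken over that background. The highest value counted for CDT1 by the 5 kb rule is therefore that of the APRT start peak, and with a window of 1 kb the value of CDT1 was 12.5 in WT replicate 1.

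GMNN (chromosome 6, 24774937 to 24786099) had a start peak that covered the start in both libraries, with summits 83 and 208 bp inside the gene. The pileup was 21 (13.0 to 32.1) in WT replicate 1 and 18 (10.7 to 28.4) in WT replicate 2. The fold enrichment was 5.16 and 5.67, and GMNN was the only member with a replicated start peak whose value was higher in WT replicate 2. Among all genes with a replicated start peak these values stood at the 13.5th and 48.3rd percentiles. The fold enrichment of GMNN was thus on the low side in WT replicate 1 and in the middle in WT replicate 2. Its pileup in WT replicate 1 equalled the 21 of MCM6, which had a fold enrichment of 7.66. The local MT level was 3.26 at GMNN and 1.87 at MCM6 in that list, so the low value of GMNN is one of fold and not of pileup. A second peak 3418 bp inside the gene was in WT replicate 1 only, at 4.75.

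**Figure D2:**
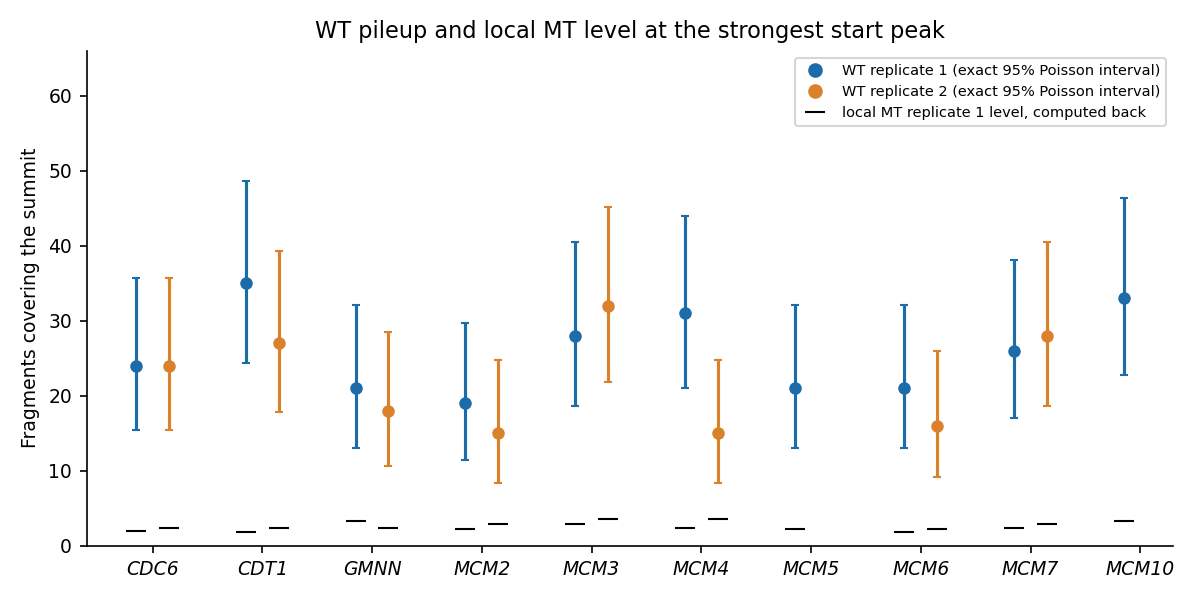
Number of fragments over the summit of the strongest peak within 1 kb of the start, for each licensing gene and WT library; bars are exact 95% Poisson intervals, which cover counting error only, and dashes are the local MT level computed back from pileup and fold enrichment. WT pileups run from 15 to 35 while MT levels stay between 1.87 and 3.52, the intervals of all genes overlap within each library, and MCM5 and MCM10 have no point for WT replicate 2.

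Of the genes of the MCM ring, MCM3 and MCM7 had the start peaks best matched in fold enrichment between the lists. MCM3 (chromosome 6, 52264015 to 52284742) had summits 400 bp before the start in WT replicate 1 and 416 bp before it in WT replicate 2. The pileup was 28 (18.6 to 40.5) and 32 (21.9 to 45.2), and the fold enrichment 7.40 and 7.29. A smaller replicated peak 2112 and 2108 bp before the start had 5.56 in both lists, and no gene of the table lay within 1 kb of it. Each of the MCM3 peaks had summits no more than 16 bp apart in both libraries.

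MCM7 (chromosome 7, 100092728 to 100101397) had a start peak of 1897 bp in WT replicate 1 and 1276 bp in WT replicate 2, with summits 341 and 451 bp before the start. The pileup was 26 (17.0 to 38.1) and 28 (18.6 to 40.5), and the fold enrichment 8.11 and 7.37. The start of AP4M1, an adaptor protein complex gene on the opposite strand, lies inside MCM7, and the summits lay 944 and 1054 bp inside AP4M1. The peak can therefore not be assigned to one of the 2 genes. Beyond the end of MCM7, in and next to COPS6, a COP9 signalosome gene, a pair of replicated peaks had fold enrichments of 4.53 and 4.53 in the first list. In the second list they had 4.07 and 3.44. These peaks were weaker than the start peak in both lists.

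MCM2 and MCM6 had lower pileups at their starts than MCM3 and MCM7 in both libraries, and higher values in WT replicate 1 than in WT replicate 2. MCM2 (chromosome 3, 127598411 to 127622436) had a pileup of 19 (11.4 to 29.7) in the first WT library and 15 (8.40 to 24.7) in the second, and fold enrichments of 6.11 and 4.06. The summit lay 263 bp before the start in WT replicate 1 and 151 bp inside the gene in WT replicate 2, the largest shift between the lists among the 8 genes (414 bp, against a median of 146.5 bp). The former summit was 83 bp inside TPRA1, which starts on the other strand next to MCM2. The start of MCM2 was under a peak in WT replicate 1, whereas in WT replicate 2 the peak began 56 bp past it.

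MCM6 (chromosome 2, 135839626 to 135876443) had pileups of 21 (13.0 to 32.1) and 16 (9.15 to 25.98), with fold enrichments of 7.66 and 5.32. Its summits lay 285 and 238 bp inside the gene. As at MCM2, the start was under the peak in WT replicate 1 only, and the peak of WT replicate 2 began 58 bp past it. At MCM6 the local MT level was the lowest that each list allows (1.87 and 2.20, the genome background), so the fold there was taken over that background in both lists.

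MCM4 (chromosome 8, 47960941 to 47978160) differed most between the libraries among the genes with a replicated start peak. In WT replicate 1 the pileup was 31 (21.1 to 44.0) at a summit 573 bp before the start, with a fold enrichment of 9.61. In WT replicate 2 it was 15 (8.40 to 24.7) at a summit 201 bp before the start, with 3.54, under a longer peak of 1754 bp. The ratio of both folds was 2.72, a value that 0.463% of the genes with a replicated start peak reached, where the median ratio was 1.30. The counting intervals of both pileups overlapped, and the local MT level was 2.33 in the first list and 3.52 in the second. Both levels come from the same MT library. They are not on the same scale, as the lowest level was itself 1.87 in the first list and 2.20 in the second. In WT replicate 1 the start of MCM4 lay in a gap between 2 peaks, the second with 4.88. The summit of WT replicate 2 fell in the same gap, so the folds of both lists are from different positions. The stronger of the 2 summits of WT replicate 1 was 232 bp from the boundary of PRKDC, the DNA-dependent protein kinase gene next to MCM4.

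MCM5 and MCM10 had no replicated peak. MCM5 (chromosome 22, 35400140 to 35455031) had a pileup of 21 (13.0 to 32.1) and a fold enrichment of 6.73 at a summit 365 bp before its start in WT replicate 1. WT replicate 2 listed only a peak 31021 bp inside the gene, with a pileup of 11 (5.49 to 19.7) and a fold enrichment of 3.76. MCM10 (chromosome 10, 13161558 to 13211110) had a pileup of 33 (22.7 to 46.3) in WT replicate 1, second only to CDT1 among the start peaks of the 10 members in that library, with a fold enrichment of 7.98. Its summit lay 388 bp before the start, and a weaker peak 157 bp inside the gene had 4.18. WT replicate 2 listed no peak in MCM10 or within 5 kb of it, so its coverage there is known only to have stayed below the authors' threshold.

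The share of genes without a matching peak depended on what they were compared by. Of 3394 stranded genes whose start peak in WT replicate 1 was at least as enriched as that of MCM10, 3.18% had no summit of WT replicate 2 within 1 kb of the start. For genes at or above the value of MCM5 the share was 4.22% of 4880. Among peaks of WT replicate 1 at least as tall and no longer than theirs, replicated peaks were fewer, at 40 of 56 for MCM10 and 201 of 343 for MCM5. The start of MCM10, like that of MCM4, lay in a gap between 2 peaks of WT replicate 1, an arrangement found at 2.08% of stranded protein-coding genes.

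When pileups were divided by the filtered fragments of their library and given per 1000000 fragments, the start peaks of the 8 genes fell in the order CDT1, MCM3, MCM7, CDC6, MCM4, GMNN, MCM6, MCM2. The means over both WT libraries were 1.30 ± 0.441 (SD, n = 2) for CDT1, 1.23 ± 0.0848 for MCM3 and 1.11 ± 0.123 for MCM7. They were 0.988 ± 0.161 for CDC6, 0.985 ± 0.620 for MCM4 and 0.810 ± 0.218 for GMNN. The lowest were 0.774 ± 0.270 for MCM6 and 0.710 ± 0.231 for MCM2. No neighbours in this order differed beyond the SD over both libraries, which includes a shift between the libraries shared by all 8 genes. Within each library MCM3 was above MCM7, MCM7 above CDC6 and MCM6 above MCM2, with counting intervals that overlapped. The first place of CDT1 held in WT replicate 1 (1.61) only. In WT replicate 2 CDT1 (0.984) was below MCM3 (1.17) and MCM7 (1.02). Both values of MCM3 and of MCM7 (1.02 and above) were higher than both values of MCM6 and of MCM2 (0.964 and below). The scaled pileup was higher in WT replicate 1 in all 8 genes, and the share of all genes for which this held was not taken.

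Set beside all genes, the fold enrichments of the licensing genes at their starts lay near the middle. The median over 8 members was 7.89 (range 5.16 to 12.5) in the first list and 6.48 (3.54 to 8.20) in the second. Over all 7565 stranded genes with a replicated start peak the medians were 7.58 (quartiles 5.92 and 9.50) and 5.84 (4.69 and 7.20). The value was higher in WT replicate 1 in 7 of the 8 members and in 83.1% of all these genes. Taking the strongest start peak of each member, 2 of 10 (CDT1 and MCM6) stood at the lowest MT level in WT replicate 1 and 1 of 8 (MCM6) did in the other list, where 41.9% and 32.5% of all peaks of these lists stood at it, and the local MT level ranged from 1.87 to 3.26 and from 2.20 to 3.52.

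**Figure D3:**
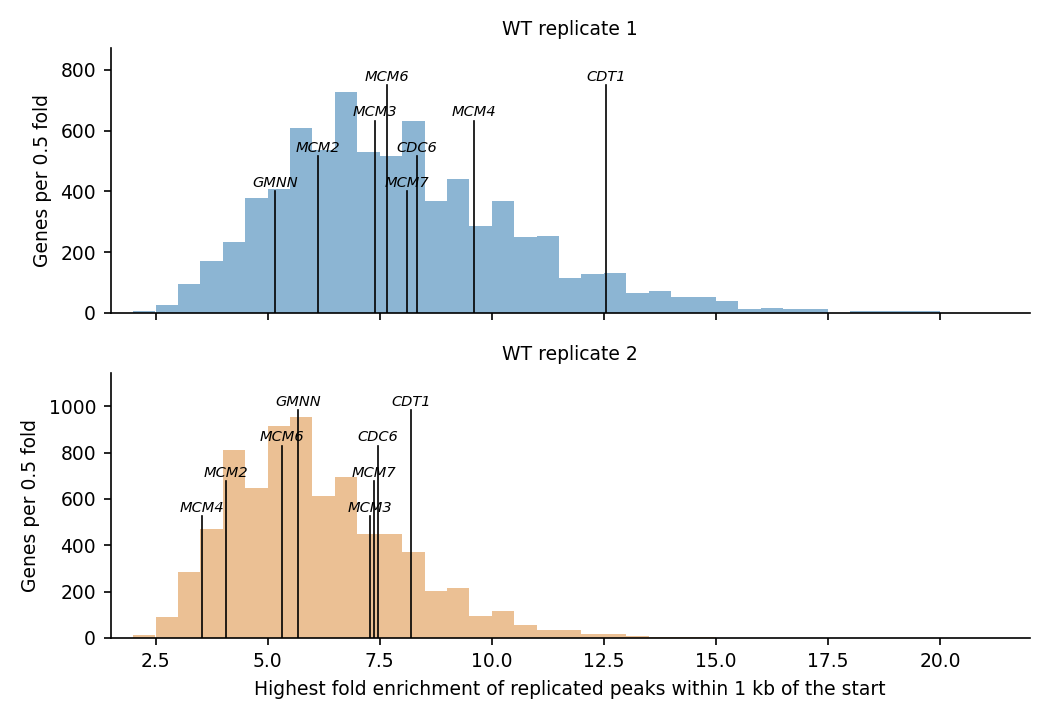
Number of stranded protein-coding genes by the highest fold enrichment of their replicated start peaks, in steps of 0.5, for WT replicate 1 (top) and WT replicate 2 (bottom); vertical lines mark the 8 licensing genes. The members lie between 5.16 and 12.5 in the upper panel and between 3.54 and 8.20 in the lower, inside the wider range of all genes, with CDT1 highest of the members in both.

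**Figure D4:**
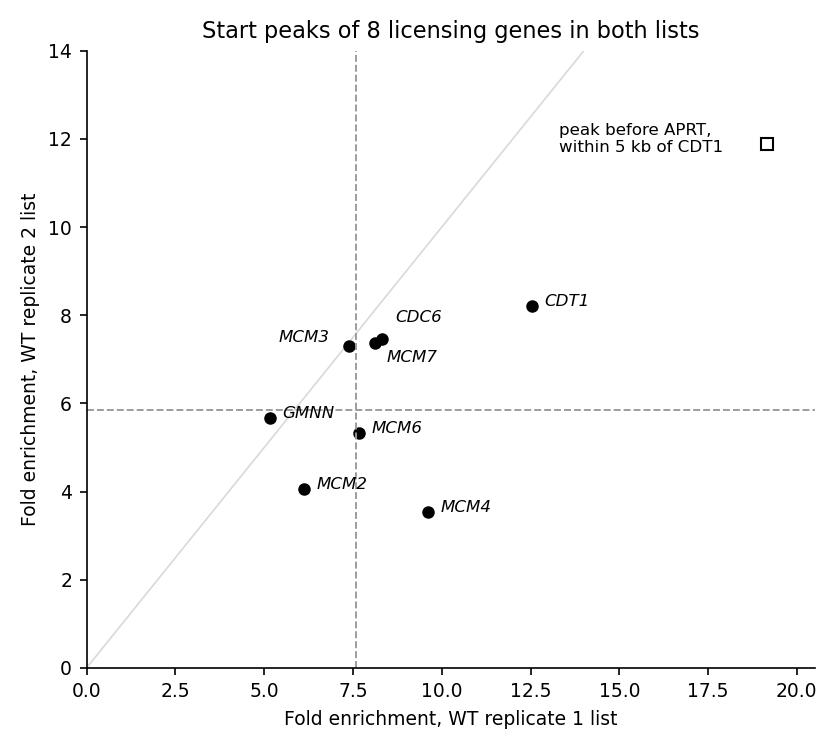
Fold enrichment in the list of WT replicate 1 (x axis) and WT replicate 2 (y axis) for the start peaks of 8 licensing genes (filled) and for the peak before APRT that the 5 kb rule counts for CDT1 (open). Dashed lines are the medians over all stranded genes with a replicated start peak, and the grey line marks equal values; of the filled points MCM4 lies farthest from it, at 9.61 and 3.54.

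The members' 23 peaks in WT replicate 1 included 14 replicated ones (60.9%), against 39.1% of all 81404 peaks of that list. Of the members' 14 peaks in WT replicate 2, 13 overlapped one of WT replicate 1, against 84.5% of all 42656 peaks of that list, so this count lies near the background. The 39.1% is no matched background, since many member peaks lie at starts. Among all stranded genes 8891 had a WT replicate 1 summit within 1 kb of the start, and 7565 had a replicated one. Of the 8 members with a strand, all 8 had such a summit and 7 a replicated one. Of the strongest start summits, 7 of 10 in WT replicate 1 and 4 of 8 in WT replicate 2 lay before the start. Over all stranded genes 48.1% of the strongest replicated start summits of WT replicate 1 lay before the start, with quartiles of -290 and 187 bp relative to it. The 7 of 10 include MCM5 and MCM10, not replicated there, and MCM4 and MCM5, which have no strand. Of the 7 members with a strand and a replicated start summit, CDT1, MCM2, MCM3 and MCM7 had it before the start in WT replicate 1. In WT replicate 1 the start peaks of both loaders were longer than the upper quartile of 1978 bp over all stranded genes with a replicated start peak, where the median was 1465 bp.

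The sequences before 3 starts are shown because they lie under the peaks in different ways. The window of the RefSeq promoter table (GRCh38.p14) runs from 250 bases before the start to 50 bases after it, and all 300 bases were under a peak in both lists at CDT1, CDC6 and MCM3 and at the outermost start of MCM7. At MCM6 and MCM2 all 300 were under a peak in WT replicate 1 and 0 in WT replicate 2. At MCM10 27 of 300 were under a peak in WT replicate 1, at the edges of the gap, and 0 in WT replicate 2. The 250 bases before the start of CDT1, MCM6 and MCM10 follow, 5′ to 3′ along the gene, with capitals at matches to the E2F motif and the CCAAT box on either strand.
CDT1 (chr16:88803539-88803788, plus strand): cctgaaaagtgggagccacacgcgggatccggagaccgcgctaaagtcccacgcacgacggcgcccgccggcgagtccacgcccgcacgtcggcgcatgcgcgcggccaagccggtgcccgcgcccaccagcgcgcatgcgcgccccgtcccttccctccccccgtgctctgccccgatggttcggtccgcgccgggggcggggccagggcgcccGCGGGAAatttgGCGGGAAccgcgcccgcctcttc
MCM6 (chr2:135876444-135876693, minus strand): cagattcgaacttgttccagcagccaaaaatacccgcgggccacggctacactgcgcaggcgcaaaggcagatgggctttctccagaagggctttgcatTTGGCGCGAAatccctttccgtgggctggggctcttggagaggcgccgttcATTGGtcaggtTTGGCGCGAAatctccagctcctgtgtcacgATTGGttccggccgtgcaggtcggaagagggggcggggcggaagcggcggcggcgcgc
MCM10 (chr10:13161308-13161557, plus strand): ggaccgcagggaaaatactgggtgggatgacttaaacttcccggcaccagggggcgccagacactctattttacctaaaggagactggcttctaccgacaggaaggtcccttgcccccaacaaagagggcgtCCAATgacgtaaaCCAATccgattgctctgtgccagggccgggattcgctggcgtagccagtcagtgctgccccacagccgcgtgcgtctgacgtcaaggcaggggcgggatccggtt

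The E2F motif was searched on both strands as TTGGCGC and as the forms TTCGCGC and, with other inner letters, TTCCCGC and also TTGCCGC. A match was held by 6 of the 8 members with a promoter entry (MCM2, MCM3, MCM6, MCM7, CDT1 and CDC6). Of all 35116 promoter windows in the table, 13% held one. GMNN and MCM10 held none at their outermost start, and the window of a second GMNN start, at 24775413 on chromosome 6, held a match 79 bp before it. CCAAT (both strands) was found in 5 of 8 windows against 34.6% of all, GGGCGG in 6 of 8 against 45% of all, and TTTGAA in none against 15.2%. A match is a description of letters and was not tested as a binding site. The 30 bases around the E2F match nearest to each start are shown because this motif is shared by most members. Capitals mark E2F matches. In MCM2, MCM6 and MCM7 matches on both strands overlap, in MCM7 a CCAAT box overlaps them too, and the first capitals of CDT1 are the end of a second match.
CDT1 (chr16:88803756-88803785, plus strand): GGGAAatttgGCGGGAAccgcgcccgcctc
CDC6 (chr17:40287877-40287906, plus strand): ccattcggatTTGGCGCgagcgcggctgga
MCM2 (chr3:127598404-127598433, plus strand): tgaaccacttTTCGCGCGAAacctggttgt
MCM3 (chr6:52284726-52284755, minus strand): ttcggaagttTTCGCGCcggggtggagtca
MCM6 (chr2:135876510-135876539, minus strand): gtcaggtTTGGCGCGAAatctccagctcct
MCM7 (chr7:100101383-100101412, minus strand): gcgacgtTTCGCGCCAAtttcggttggccg

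The E2F matches shown and the start summits lay at different positions. The match nearest to the start began 23 bp before it in CDT1, 8 bp past it in CDC6, 3 bp past it in MCM2, 3 bp before it in MCM3, 86 bp before it in MCM6 and 5 bp before it in MCM7. The start summits of these genes were 180 to 762 bp from the start in CDC6, CDT1, MCM3, MCM6 and MCM7, and 151 and 263 bp from it in MCM2. Members without a match at the outermost start included MCM10 and GMNN. In WT replicate 1 MCM10 had a pileup of 33 and a fold enrichment of 7.98, and GMNN had 21 and 5.16. The local MT level was 3.26 at both.

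Other genes of the replication machinery also carried replicated peaks, as did 66.6% of all protein-coding genes by the 5 kb rule. By the same 5 kb rule, all 11 genes of origin recognition and loading partners had one, with median highest fold enrichments of 8.36 and 7.72 over the list. ORC2, an origin recognition subunit gene, had 14.3 and 11.9 in the lists of WT replicates 1 and 2, and MCM8, a paralog of the helicase genes, had 10.5 and 10.1. All 13 genes of origin firing and assembly of the active helicase had one, with list medians of 6.62 and 6.57. CDC45, a subunit of that helicase, had 10.5 and 7.65, and the helicase gene RECQL4 had 11.3 and 12.8. As at CDT1, a highest value by the 5 kb rule can belong to a neighbour, which was not checked for the genes of these lists. Over all protein-coding genes with a replicated summit the medians were 7.95 and 5.97, and those of the licensing genes by the same 5 kb rule were 7.89 and 6.48.

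Of 27 genes of replicative polymerases and fork proteins, 25 had a replicated summit (92.6%), against 66.6% of all protein-coding genes. Their medians were 8.01 and 5.56. CLSPN, whose product claspin acts in the replication checkpoint, had 13.2 and 11.9, and PRIM2, a primase subunit gene, had 13.1 and 11.2. Within 1 kb of its start PRIM2 had 9.68 and 4.12. RFC1, of the clamp loader, and POLE4, a polymerase subunit gene, had none. All 11 genes for turnover of licensing factors had one, with medians of 8.07 and 6.57, and FZR1, an activator of the anaphase-promoting complex, had 11.8 and 7.82, and CDC20, another such activator, 11.8 and 6.87. Within 1 kb of the start the counts were 9 of 11, 9 of 9, 22 of 24 and 8 of 10 genes with a strand, in the order of these 4 lists. The share of all stranded genes was 47.8%. Some listed genes are longer than any licensing gene, such as PRIM2 at 425311 bp, and no share at matched length was taken for these lists. These counts were not tested against each other or against the licensing genes.

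**Figure D5:**
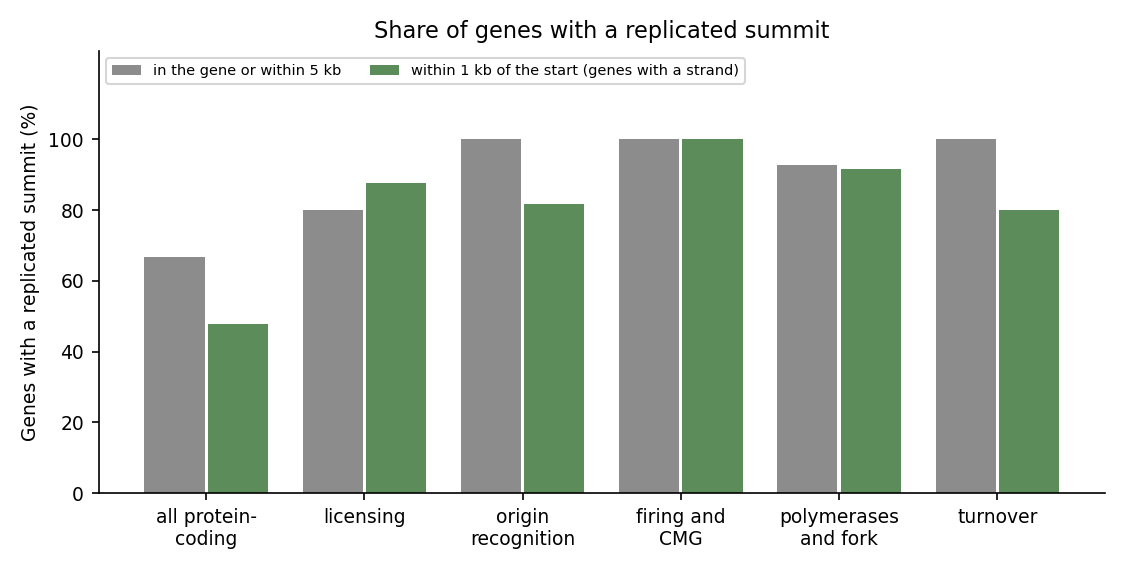
Percentage of genes that hold a replicated summit by the 5 kb rule (grey) and at most 1 kb from the start (green, genes with a strand only), for all protein-coding genes, the licensing genes and 4 lists of other replication genes. The licensing genes stand at 8 of 10 and 7 of 8, and all lists lie above the shares of all protein-coding genes, 66.6% and 47.8%.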

How the data were processed

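Per the labels' protocols, GFP CUT&RUN libraries of HCT116 cells were read as 75 bp pairs. The submitters' processing notes name hg38, ChIPseeker 1.28.3, MACS2 2.1.2 and Bowtie2 2.3.4. Per the file headers, the authors called narrow peaks with MACS2 separately in each of the 2 WT libraries against MT replicate 1, with peaks of 200 bp or more at a q-value threshold of 0.05, keeping at most 2 fragments per position. The deposited pileup is the WT fragment coverage (signal) at the summit, and all pileups were whole numbers although the headers announce scaling to the smaller library. The fold values the authors deposited are a ratio of pileup plus 1 to local control level plus 1. MACS2's −log10 p-values and −log10 q-values were used as the authors deposited them, only to rank and filter peaks.

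The local MT level was computed back from pileup and fold. Its lowest value, 1.87 in WT replicate 1 and 2.20 in WT replicate 2, matched the genome background expected from each WT library (1.87 and 2.20), so pileups were taken as unscaled. Gene boundaries came from a RefSeq table and strands from a RefSeq promoter table (both GRCh38.p14). Exons were not used here, and the mitochondrial chromosome was left out. Exact Poisson intervals (95%) cover counting error only, and PCR copies are not independent molecules. Members and lists were chosen with earlier results of these data known. Named genes were all members, in each of 4 lists the 2 genes with the best worse rank of fold in both WT lists and the longest gene without a replicated summit, and neighbours within 1 kb of a member's replicated summit. POLE4 was named after its values were seen. No gene was tested, since the lists hold no replicate values for MT. The counting steps were tested on planted peaks with known answers. Python 3.11.15, numpy 2.4.6, pandas 2.3.3, scipy 1.17.1 and matplotlib 3.10.9 were used. Alternatives covered the peaks used, the overlap, the window, the list that places the summits and each WT library alone.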

Additional observations from a re-analysis of the deposited data

How the results depend on the processing

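No paired analysis was possible because each list compares 1 WT library with the same MT library and no test across samples was made. With the top 10000 peaks of each list the licensing genes with a replicated summit fell from 8 to 4, and with peaks at the lowest MT level to 3. The share of all protein-coding genes was not taken under any alternative, so these counts stand without a background. Inside the gene span 4 genes had one, with a median fold of 6.41 in WT replicate 1. The count at the start was 4 with the top 10000 peaks, 1 at the lowest MT level and 5 when 50% of both peaks had to overlap, and the median fold in WT replicate 2 was 5.32 at the lowest MT level. For the origin recognition list the lowest MT level left 3 of 11 genes. For the firing list the top 10000 peaks left 4 of 13, and the lowest MT level and the gene span 6 each. For the polymerase and fork list these counts were 13 of 27 with the top 10000 peaks and 11 at the lowest MT level. For the turnover list the top 10000 peaks left 4 of 11, the lowest MT level and the gene span 6 each, and the 50% overlap 7. Without WT replicate 2 or without WT replicate 1, any peak of the remaining list was counted, and the licensing genes came to 10 and 9, those at the start to 10 and 8, and the polymerase and fork genes to 27 and 26. The median fold was then 7.82 in the first list alone and 5.67 in the second alone. The top 10000, lowest MT level and 50% overlap settings keep fewer replicated peaks by construction, and the cause of these moves was not tested. The other 67 summary values stayed within 1.5 times or within the spread between lists, as did 114 values for single genes. Within that limit the licensing genes with a replicated summit fell to 6 at a −log10 q of at least 5, at a fold of at least the list median and at 50% overlap. A gene left without a replicated peak gave no value and was not counted as moved, which held for MCM2 and MCM4 under these 3 settings. The 8 single-gene values that moved were CDC6 at 50% overlap (5.00 and 4.70, from its peak near WIPF2), MCM7 at the lowest MT level (4.53 and 4.07), MCM2 within 10 kb (10.2 and 5.52), MCM4 inside its span (4.88) and CDT1 within 1 kb (12.5). Low pileups limit precision: within each list the counting intervals of the members' strongest start peaks all overlap.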

Other observations

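The tall, narrow peak of MCM10 in WT replicate 1 had few counterparts. Of 4192 peaks of that list with a pileup of at least 33, 56 were no longer than its 373 bp, and 40 of these 56 (71.4%) overlapped a peak of WT replicate 2, against 98.7% of all 4192. For MCM5, with a pileup of 21 over 415 bp, 201 of 343 peaks as tall and as short (58.6%) were replicated, against 92.7% of 16050. A shorter peak has fewer bases that can overlap, and the part of this in the difference was not tested.

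Replicated peaks upstream of members that lie away from any start of the member itself were few. The CDC6 peak 3707 bp before the start, at 5.00 in WT replicate 1 and 4.70 in WT replicate 2, had its summits 36 and 53 bp past the end of WIPF2, a gene end with GapR-GFP in both libraries. The local MT level there, 4.002 and 4.96, was the highest at any peak of the 10 genes.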
